A study of Mus musculus with 14 samples.

Results

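The synaptotagmins described here are 10 genes chosen by symbol in the platform annotation of the array: Syt1, Syt2, Syt4, Syt5, Syt6, Syt7, Syt9, Syt10, Syt11 and Syt13. Of these, 8 had at least 1 probe set among the values, out of 16244 genes with a probe set in all, and together they had 13 of 30843 probe sets. Syt4 and Syt13 were not analysed here. A gene entered the tests when at least 1 pool averaged 5 or more on the log2 scale, which kept 5 of the 8 (Syt1, Syt2, Syt7, Syt9 and Syt11) and 4409 of all genes. Syt5, Syt6 and Syt10 stayed under 5 on all 14 arrays and were not tested.

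The material was the medial vestibular nucleus, a brainstem nucleus that processes balance and eye-movement signals, in mice aged 24 to 32 days after birth from 3 fluorescent reporter lines, YFP-16, GIN and GlyT2-13, with C57BL/6 as the strain behind them. Single neurons gave amplified cDNA, were sorted into types by transmitter-related genes, ion channels and markers, and were then combined by type before hybridisation to Affymetrix arrays. Types E1 and E2 carry the letter of excitatory neurons, and I1a, I1b, I2, I3a and I3b that of inhibitory neurons; the type E3 named in the design was not analysed here. Each type was 1 pool measured on 2 arrays that the labels call technical replicates. The reporter lines are given for all pools alike, without the share of each line in a pool. A difference between types therefore cannot be told apart from a difference between lines. A pool holds only neurons from these lines that the classifying genes assigned to its type. The labels do not give how many cells a pool held. The 2 arrays therefore measure technical error, and in a pool fewer cells that express a gene cannot be told apart from less RNA per cell.

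Synaptotagmins are membrane proteins with paired C2 domains. Several of them bind calcium, sit on synaptic or secretory vesicles and couple calcium entry to membrane fusion by the SNARE proteins. Syt1, Syt2 and Syt9 act as fast calcium sensors for synchronous transmitter release, and in the mouse brain Syt2 prevails in brainstem and spinal circuits while Syt1 prevails in the forebrain. Syt7 is a slower, high-affinity sensor linked to asynchronous release, facilitation and vesicle replenishment, and Syt11 does not bind calcium in its C2 domains.

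Syt1 and Syt2 had the widest ranges of the family over the pools, so their promoter windows are shown first. Each window is 300 bases long, most of it upstream of an annotated start and the rest just past it, from RefSeq on GRCm38.p6, read 5′ to 3′ on the gene's strand. Capitals mark matches, on either strand, to the GC-box core GGGCGG and to the CCAAT box, and no match overlaps another.

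Syt2, chr1:134646362-134646661, plus strand: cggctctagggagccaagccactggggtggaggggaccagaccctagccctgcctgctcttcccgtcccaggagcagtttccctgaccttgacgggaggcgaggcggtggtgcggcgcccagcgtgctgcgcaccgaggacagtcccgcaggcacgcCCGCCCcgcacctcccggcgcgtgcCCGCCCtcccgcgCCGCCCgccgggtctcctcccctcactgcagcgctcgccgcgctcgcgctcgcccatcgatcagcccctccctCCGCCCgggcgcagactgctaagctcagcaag
Syt2, chr1:134709050-134709349, plus strand: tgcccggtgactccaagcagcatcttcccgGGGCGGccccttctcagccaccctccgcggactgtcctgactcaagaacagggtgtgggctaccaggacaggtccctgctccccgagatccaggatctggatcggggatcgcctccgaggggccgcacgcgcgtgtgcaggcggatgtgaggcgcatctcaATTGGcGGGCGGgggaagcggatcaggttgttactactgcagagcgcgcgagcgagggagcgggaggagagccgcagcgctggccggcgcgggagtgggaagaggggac
Syt1, chr10:109010926-109011225, minus strand: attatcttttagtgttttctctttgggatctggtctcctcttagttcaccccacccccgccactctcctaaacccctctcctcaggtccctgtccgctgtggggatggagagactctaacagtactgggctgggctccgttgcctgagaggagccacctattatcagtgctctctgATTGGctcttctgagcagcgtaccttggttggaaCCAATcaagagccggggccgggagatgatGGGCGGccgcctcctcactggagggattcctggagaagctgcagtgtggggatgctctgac
Syt1, chr10:109009062-109009361, minus strand: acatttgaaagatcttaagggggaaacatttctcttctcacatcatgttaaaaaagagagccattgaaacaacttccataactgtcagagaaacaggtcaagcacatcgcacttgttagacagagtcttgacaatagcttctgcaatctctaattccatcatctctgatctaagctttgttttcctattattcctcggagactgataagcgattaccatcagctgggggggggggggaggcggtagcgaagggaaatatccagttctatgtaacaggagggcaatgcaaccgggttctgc

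The first Syt2 window held 4 GGGCGG matches and the second 2, together with 1 CCAAT. The Syt1 window at the outermost start held 1 GGGCGG and 2 CCAAT, and the other Syt1 window held neither. Among 32851 promoter windows of the same length, 35.7% held GGGCGG and 37.4% held CCAAT. The searched motifs CACGTG (in 7.15% of windows), TGACGTCA (1.79%) and TATAAA (13.6%) were in none of these 4 windows. GC content was 74.3% and 68.3% in the Syt2 windows and 56.7% and 44.0% in the Syt1 windows, against a median of 52.7% over all windows. These matches describe letters and not binding, and the arrays do not tell which start was used. Of the 8 members on the array, 6 had a window in the RefSeq table.

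Values are log2 signals as deposited, with a floor of 2.39 shared by all arrays and a highest value of 15.9. Levels are compared below between pools for 1 probe set at a time and never between genes, since probe sets differ in response. Pools were ordered by their mean, and neighbours in the order were called apart where their means differed by more than 3 technical SDs (pooled over the 7 pairs of arrays) and their arrays did not overlap.

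Because the cells had been sorted into types partly by transmitter-related genes, the levels of such genes do not test the types independently. The glutamate transporter of vesicles in these nuclei, Slc17a6, was at 11.11 in E1 and 10.98 in E2. Slc32a1, the vesicular inhibitory transporter, was at 6.60 in E1 and 5.41 in E2 and between 9.20 and 9.76 in the I pools. Slc17a6 was however also at 8.60 in the I1a pool, 10.48 in the I1b pool and 6.93 in the I3a pool. Of the markers of other cells, 0 of 5 astrocyte, 0 of 4 microglial, 0 of 2 endothelial and 0 of 2 Purkinje and granule cell genes reached 5 in any pool, and 1 of 4 oligodendrocyte genes did, Mbp, at 6.20 in I3a and 5.50 in I1b. The 2 arrays of a pool correlated at 0.981 to 0.992 over the kept genes, with I3a the lowest, and their SD ran from 0.19 to 0.29.

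Syt2 (Entrez 20980, chromosome 1, 134646534 to 134753149 in GRCm38.p6; 1 probe set) had the widest range of the family. Its log2 signal was 8.01 and 8.09 on the E1 arrays, 7.55 and 7.50 on the E2 arrays, 6.06 and 6.09 on the I1a arrays and 7.85 and 7.98 on the I1b arrays. It was 3.73 and 3.15 on the I2 arrays, 4.58 and 4.52 on the I3a arrays and 2.90 and 3.05 on the I3b arrays. Both E pools and both I1 pools lay above 6, and I2, I3a and I3b lay under 5, with no array of the first 4 pools overlapping an array of the other 3. From high to low the order was E1, I1b, E2, I1a, I3a, I2 and I3b, spanning 5.08 log2 units with a technical SD of 0.17. The steps from E2 to I1a, from I1a to I3a and from I3a to I2 were apart, whereas E1, I1b and E2 formed a run of neighbours that were not, and I2 and I3b were not apart either.

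Syt1 (Entrez 20979, chromosome 10, 108497650 to 109010980; 1 probe set), the sensor that prevails in the forebrain, was ordered differently. Its log2 signal was 9.53 and 9.23 on the E1 arrays, 11.53 and 11.41 on the E2 arrays, 9.97 and 9.77 on the I1a arrays and 10.02 and 10.23 on the I1b arrays. It was 10.72 and 10.74 on the I2 arrays, 6.59 and 6.77 on the I3a arrays and 9.43 and 9.46 on the I3b arrays. E2 and I2 were the highest pools, and I3a was the lowest by a wide step. The order was E2, I2, I1b, I1a, I3b, E1 and I3a, spanning 4.79 log2 units with a technical SD of 0.12. E2 and I2, I2 and I1b, I1a and I3b, and E1 and I3a were apart, while I1b and I1a, and I3b and E1, were not.

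Of the 3 pools with little Syt2 signal, I3a was also low for Syt1, while I2 and I3b were not its lowest pools. I2 had the second-highest Syt1 mean, 10.73, and a Syt2 mean of 3.44, and I3b had a Syt1 mean of 9.44 and the lowest Syt2 mean, 2.97. I3a had a Syt1 mean of 6.68 and a Syt2 mean of 4.55. E1 had the highest Syt2 mean, 8.05, and a Syt1 mean of 9.38. Over the 7 pool means the Pearson correlation of Syt1 and Syt2 was 0.28. It is given as a description, since pools share the method of amplification and the array normalization.

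**Figure D1:**
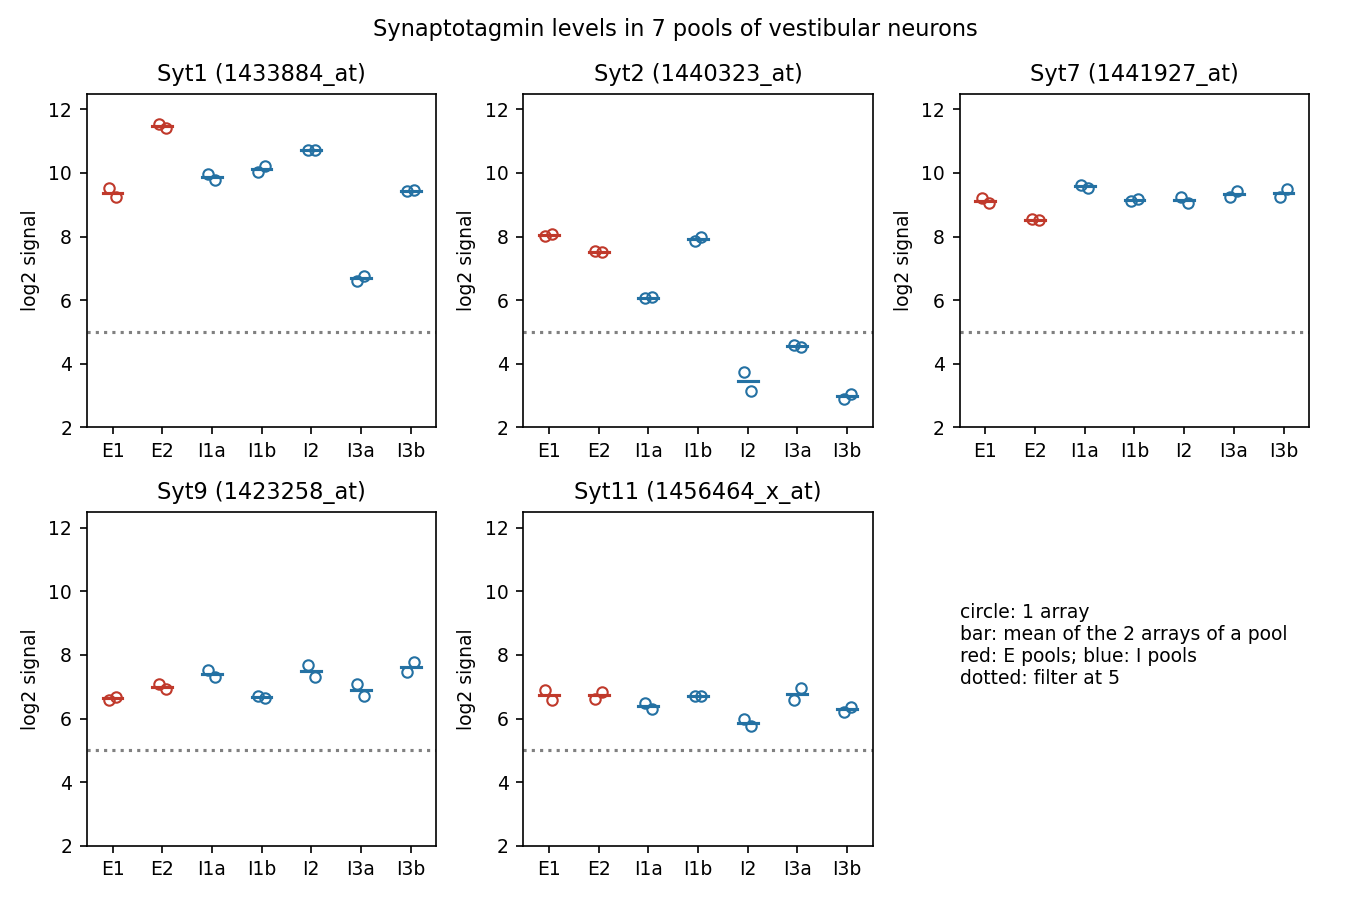
Log2 signal (vertical axis) of the 5 tested synaptotagmins, 1 panel per gene, in the 7 pools from E1 to I3b; circles are the 2 technical arrays, bars the pool mean, red the E pools, blue the I pools and the dotted line the filter at 5. Syt1 lies at 6.59 and 6.77 in I3a, and Syt2 separates E1, E2, I1a and I1b, all above 6, from I2, I3a and I3b, all under 5.

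The low Syt1 signal of I3a stood out among genes. Both I3a arrays lay at least 2.47 log2 units below every array of the other pools. Ranked by that gap, Syt1 was number 2 of 4409 genes, and 23 genes (0.522%) had both I3a arrays at least 1 unit below all others; this count was made after the values were seen. I3a was also the pool with the highest Mbp (6.20) and the highest Gja1, an astrocyte connexin, at 4.19 against at most 2.66 in the other pools, while Gfap, Cldn5 and C1qa were at or near the floor. Summed over the lists, the 5 astrocyte genes reached 13.8 in I3a against 12.0 to 12.2 in the other pools, and the 4 oligodendrocyte genes 13.8 in I3a against 10.2 to 13.2, the highest of these in I1b. In I3a these sums were raised by Gja1 and Mbp alone. Gfap, Aqp4, Slc1a3 and Aldh1l1 were at 2.39 to 2.44 there, and Mog, Mag and Mobp at 2.39 to 2.79. The part of these signals in the Syt1 value was not tested. Snap25, a SNARE protein of all neurons, was at 12.66 in I3a and between 12.40 and 13.57 in the other pools, and the 3′ and 5′ Gapdh control probe sets of I3a (9.53 and 3.91) were within or at the edge of the range of the other pools (9.34 to 9.77 and 3.57 to 3.91). Control probe sets for bacterial transcripts were highest in I3a for all 3 of BioB and all 3 of LysX. For example, BioB-3 was at 9.62 against 7.74 to 8.98 and LysX-3 at 12.00 against 10.37 to 11.64 in the other pools. DapX-3 was instead highest in I2 (6.33), with 6.14 in I3a, and DapX-5 and DapX-M were at or near the floor in all pools. Their part was not tested either.

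Syt7 (Entrez 54525, chromosome 19, 10388802 to 10453181) was present in every pool at a nearly even level. The probe set with the highest mean, 1 of 4, read 9.22 and 9.05 in E1, 8.54 and 8.51 in E2, 9.62 and 9.53 in I1a and 9.12 and 9.19 in I1b. It read 9.24 and 9.07 in I2, 9.25 and 9.44 in I3a and 9.24 and 9.48 in I3b. E2 was the lowest pool, its arrays 0.51 log2 units below every other array, and E1 and E2 were the single pair of neighbours apart in a range of 1.05 units. Of the other Syt7 probe sets, 1439633_at ran from 6.56 in E2 to 7.27 in I1a and 1460081_at from 5.83 in I3a to 6.94 in I1a, and the fourth, 1423012_at, was at the floor in all pools.

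Syt9 (Entrez 60510, chromosome 7, 107370349 to 107548656; 1 probe set), the third fast sensor, had log2 signals of 6.58 and 6.69 in E1, 7.08 and 6.92 in E2, 7.52 and 7.30 in I1a and 6.70 and 6.64 in I1b. It had 7.68 and 7.31 in I2, 7.09 and 6.71 in I3a and 7.47 and 7.79 in I3b. The pool means ran from 6.64 in E1 to 7.63 in I3b, and no neighbours in the order were apart at a technical SD of 0.18.

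Syt11 (Entrez 229521, chromosome 3, 88744699 to 88775159; 2 probe sets) varied least of the 5. The probe set used had pool means from 5.87 in I2 to 6.77 in I3a, a span of 0.90 with a technical SD of 0.17 and no neighbours apart. The other probe set, 1455176_a_at, did not repeat the low I2 value: its I2 arrays read 6.57 and 6.56, inside a range of 6.06 to 6.79 over all arrays. The pool means of the 2 Syt11 probe sets correlated at 0.12 over the 7 pools, so the order of pools for Syt11 depended on the probe set. For Syt7 the same correlation was 0.83, 0.73 and 0.45 among the 3 probe sets above the floor.

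**Figure D2:**
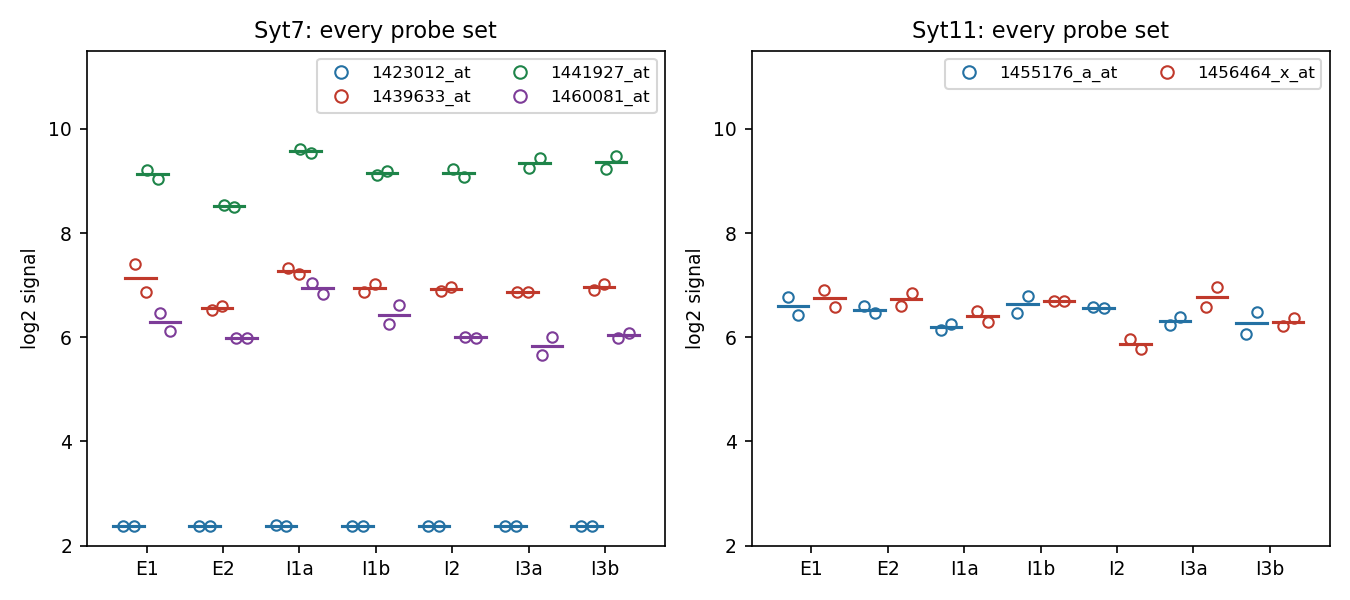
Log2 signal (vertical axis) of every probe set of Syt7 (left) and Syt11 (right) in the 7 pools; circles are single arrays, bars pool means and colours probe sets. The 3 Syt7 probe sets above the floor are highest in I1a, and the 2 Syt11 probe sets part at I2, where 1456464_x_at averages 5.87.

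The 3 members that were not tested were low throughout. Syt5 (Entrez 53420, chromosome 7, 4539765 to 4547541), a dense-core vesicle synaptotagmin, ran from 2.42 to 2.66 over the 14 arrays, and Syt10 (Entrez 54526, chromosome 15, 89773714 to 89841980), known for regulated secretion of growth factor in the olfactory bulb of the mouse, from 2.39 to 2.61. Syt6 (Entrez 54524, chromosome 3, 103575245 to 103645567), known from the acrosome reaction of sperm, had 1 probe set from 2.39 to 3.05 and another, 1449767_x_at, from 2.39 to 4.96. The second differed widely between arrays of the same pool, for example 3.31 and 4.96 in I1a, with a technical SD of 0.69. These signals are near the floor of the arrays, and no level was detectable for Syt5 and Syt10 at this signal over background.

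The first comparison set the excitatory against the inhibitory pools. Neither Syt2, the largest difference, nor any other member passed. Syt2 averaged 7.79 in the 2 E pools and 4.99 in the 5 I pools, a difference of 2.79 log2 units (SE 1.25, 95% CI -0.11 to 5.70, adjusted p = 0.753). I1b, at 7.91, lay above E2, so the groups overlapped. Syt1 averaged 10.43 in the E pools and 9.37 in the I pools, a difference of 1.06 (SE 1.07, CI -1.43 to 3.54, adjusted p = 0.845).

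The remaining members differed by less between E and I pools. Syt7 differed by -0.49 (SE 0.23, CI -1.03 to 0.05, adjusted p = 0.773), Syt9 by -0.40 (SE 0.31, adjusted p = 0.809) and Syt11 by 0.33 (SE 0.27, adjusted p = 0.809). Of the 5 members 0 were called, at an adjusted p under 0.05 and at least 1 log2 unit, against 0.0227% of all genes (1 gene). At an unadjusted p under 0.05, 0 of 5 members and 273 of 4409 genes remained. Pool means did not overlap for 1 of 5 members, Syt7, with E1 at 9.13 just below I1b and I2 at 9.15, against 12.2% of all genes. That held for the Syt7 probe set used: in 1439633_at E1 (7.14) lay above 4 of the 5 I pools, and E minus I was -0.15 there (adjusted p = 0.912), -0.10 in 1460081_at (adjusted p = 0.962) and -0.19 for the mean of all Syt7 probe sets. The median difference of the 5 was 0.33, against -0.01 over all genes.

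Single pools decided the Syt1 difference between E and I, which was 0.01 without E2, 2.10 without E1, 0.38 without I3a and 0.41 without both I1b and I3a. The Syt2 difference was 2.29 to 3.53 when any 1 pool was left out and 3.62 without I1b and I3a, and Syt7 was -0.18 without E2 and -0.79 without E1. Syt9 was -0.22 without E1 and -0.69 without I1b and I3a, and Syt11 was 0.20 without I2 and 0.55 without I1b and I3a.

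The second comparison set the I1 pools (I1a and I1b) against the I3 pools (I3a and I3b). Syt2 averaged 6.99 in the I1 pools and 3.76 in the I3 pools, a difference of 3.23 log2 units (SE 0.76, CI 1.35 to 5.11). The groups did not overlap, the unadjusted p was 0.00592, and the adjusted p was 0.276, so Syt2 was not called. With the 14 arrays in 1 fit and the pool as a random block, its adjusted p was 0.00442. That fit counted both technical arrays of a pool towards the error, under 1 within-pool correlation for all genes. It called 114 of all genes, against 0 in the fit on pool means. Both I3 means were under 5, and with values under 5 set to 5 the difference was 1.995 (adjusted p = 0.42). Syt1 averaged 9.997 in the I1 pools and 8.06 in the I3 pools, a difference of 1.93 (SE 1.04, CI -0.65 to 4.52, adjusted p = 0.567). Without I3a that difference was 0.55, without I3b it was 3.32 and without both I1b and I3a it was 0.42.

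Syt7 (0.01, SE 0.29), Syt9 (-0.22, SE 0.38) and Syt11 (0.02, SE 0.26) differed between I1 and I3 by less than their errors, with 95% intervals from -1.17 to 0.73 at the widest ends. Without I1b and I3a they were 0.22 for Syt7, -0.22 for Syt9 and 0.11 for Syt11, and the sign of each turned when a single pool was left out. Called members numbered 0 of 5, against 0% of all genes (0 by limma, 496 of them and 1 member, Syt2, at an unadjusted p under 0.05). Syt1 and Syt2, 2 of the 5, had pools that did not overlap, against 40% of all genes, so the share among the members was that of the background. The median difference of the members was 0.02, against -0.04 over all genes.

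The next 3 comparisons set 1 pool against another, so their p-values measure technical error on the arrays and not the spread between cells or animals. E1 and E2 differed most in Syt1, which was lower in E1 by 2.09 log2 units (E1 minus E2 -2.09, SE 0.12, CI -2.34 to -1.83, adjusted p = 2.88e-07). Syt7 was higher in E1 by 0.61 (SE 0.11, adjusted p = 0.00178) and Syt2 by 0.53 (SE 0.18, adjusted p = 0.046), both under the required 1 log2 unit. Syt9 (-0.36, adjusted p = 0.148) and Syt11 (0.01, adjusted p = 0.97) were not past the threshold. Called members were 1 of 5, against 7.39% of all genes. The Syt7 probe set 1439633_at gave 0.58 (adjusted p = 0.0202 over 5329 probe sets) and 1460081_at 0.30 (adjusted p = 0.248).

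I1a and I1b differed most in Syt2, which was lower in I1a: the mean was 6.08 in I1a and 7.91 in I1b, a difference of -1.84 (SE 0.18, CI -2.23 to -1.45, adjusted p = 1.31e-05). Syt9 was higher in I1a by 0.74 (SE 0.17, adjusted p = 0.00473) and Syt7 by 0.43 (SE 0.11, adjusted p = 0.00875), against a median over all genes of -0.22 in this pair. Syt1 (-0.26, adjusted p = 0.0991) and Syt11 (-0.30, adjusted p = 0.194) lay close to that median. Called members were 1 of 5, against 13.1% of all genes. After quantile normalization Syt9 differed by 1.03 and was called as well.

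I3a and I3b differed in both leading members, in opposite directions. Syt1 was lower in I3a by 2.77 log2 units (I3a minus I3b -2.77, SE 0.12, CI -3.02 to -2.51, adjusted p = 1.28e-08). Syt2 was higher in I3a by 1.57 (SE 0.18, CI 1.18 to 1.97, adjusted p = 5.22e-05), but both means, 4.55 in I3a and 2.97 in I3b, were under 5, and no difference was left with values under 5 set to 5. Syt9 was lower in I3a (-0.73, SE 0.17, adjusted p = 0.00784), Syt11 differed by 0.48 (adjusted p = 0.0537) and Syt7 by -0.02 (adjusted p = 0.941). For Syt11 the other probe set gave 0.03 (adjusted p = 0.917), the mean of both 0.26, and the probe set used 0.29 without the second I3a array. Called members were 2 of 5, against 9.91% of all genes.

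**Figure D3:**
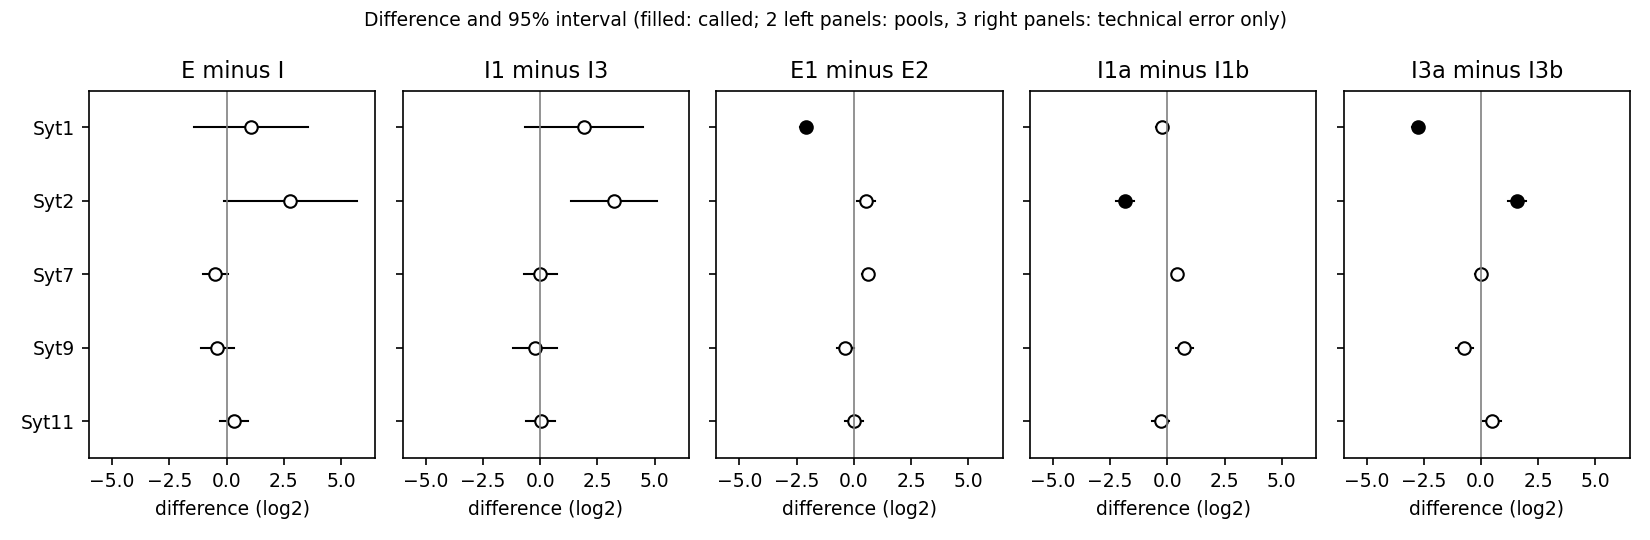
Difference in log2 signal (horizontal axis) of the 5 tested members in the 5 comparisons, 1 panel each, with 95% confidence intervals; the error comes from pools in the first 2 panels and is technical in the others, and filled circles are called. The intervals for E minus I all reach 0, and Syt1 lies at -2.09 for E1 minus E2 and -2.77 for I3a minus I3b.

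Other synaptotagmins and related C2-domain proteins were examined as a list of 19, of which 14 were on the array. The 5 kept were the synaptotagmins Syt16 and Syt17 and the related Sytl2, Doc2a and Rph3a. No gene of this list was called for E against I or for I1 against I3. Syt17, a synaptotagmin found at the Golgi and on endosomes, ran opposite to Syt2, at 4.87 in E1, 3.65 in E2, 6.13 in I1a, 5.56 in I1b, 7.10 in I2, 7.98 in I3a and 7.35 in I3b. Its E pools did not overlap the I pools (difference -2.56, SE 0.66, adjusted p = 0.737), nor its I1 pools the I3 pools (-1.82, SE 0.48, adjusted p = 0.318). Such pools did not overlap for 2 of the 5 kept genes in E against I, against 12.2% of all genes. In I1 against I3 that held for 3 of the 5, against 40%. In E1 against E2 Syt17 was called higher in E1 by 1.22 (adjusted p = 0.000835), at levels under 5 in both pools; with values under 5 set to 5 the difference was 0, and it was 0.97 without the second E2 array. Syt16, another synaptotagmin without calcium binding, averaged 4.65 in the E pools and 5.86 in the I pools (adjusted p = 0.737). Doc2a, a high-affinity calcium sensor of spontaneous and asynchronous release, was called higher in I3a than in I3b by 1.21 (adjusted p = 0.0278), but the adjusted p was 0.226 without the second I3a array, 0.0791 without the first I3b array and 0.12 without the second I3b array.

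The partners of synaptotagmins in release were a list of 24, with 21 on the array and 16 kept. None was called for E against I or I1 against I3, where their median differences were 0.22 and 0.20 log2 units. Vamp1, the vesicle SNARE that prevails in brainstem and spinal cord, averaged 9.03 in the E pools and 7.06 in the I pools (adjusted p = 0.753), and 8.48 in the I1 pools and 6.48 in the I3 pools (adjusted p = 0.225). Stx1a, a plasma membrane SNARE, was low where Syt2 was high, with 3.61 in the E pools against 6.69 in the I pools (adjusted p = 0.737) and 5.45 in the I1 pools against 7.85 in the I3 pools (adjusted p = 0.333). In the pair comparisons 3 of 16 were called for E1 against E2 (1 higher and 2 lower in E1), against 7.39% of all genes. For I1a against I1b 6 were called (2 higher and 4 lower in I1a), against 13.1%, and for I3a against I3b 3 (Cadps2, Rims2 and Unc13c, each higher in I3a), against 9.91%. Cplx2, a complexin that clamps and promotes fusion, was lower in E1 than in E2 by 2.42 (SE 0.19, adjusted p = 4.97e-06), the same direction as Syt1. Unc13c, a vesicle priming factor, was lower in I1a than in I1b by 2.85 (SE 0.23, adjusted p = 3.6e-06), and Cadps2, which primes dense-core vesicles, was lower in I1a by 3.96 (SE 0.25, adjusted p = 5.25e-07) and higher in I3a than in I3b by 2.72 (SE 0.25, adjusted p = 1e-05). Each of the 3 calls in I3a against I3b ended under an alternative: with values under 5 set to 5 Cadps2 differed by 0.86 and Unc13c by 0, and with the mean of its probe sets Rims2 differed by 0.50. The calls of Stx1a in E1 against E2 and of Rims2 in I1a against I1b likewise ended with values under 5 set to 5 (0 and 0.30), and that of Rims2 also without the second I1a array (0.98). With the mean of a gene's probe sets, Stx1a (-0.76) and Rims2 (0.32) in E1 against E2 and Stx1a (0.75), Rims2 (0.12) and Cplx2 (-0.67) in I1a against I1b were not called, and Sv2b in that pair was -0.82 with values under 5 set to 5.

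**Figure D4:**
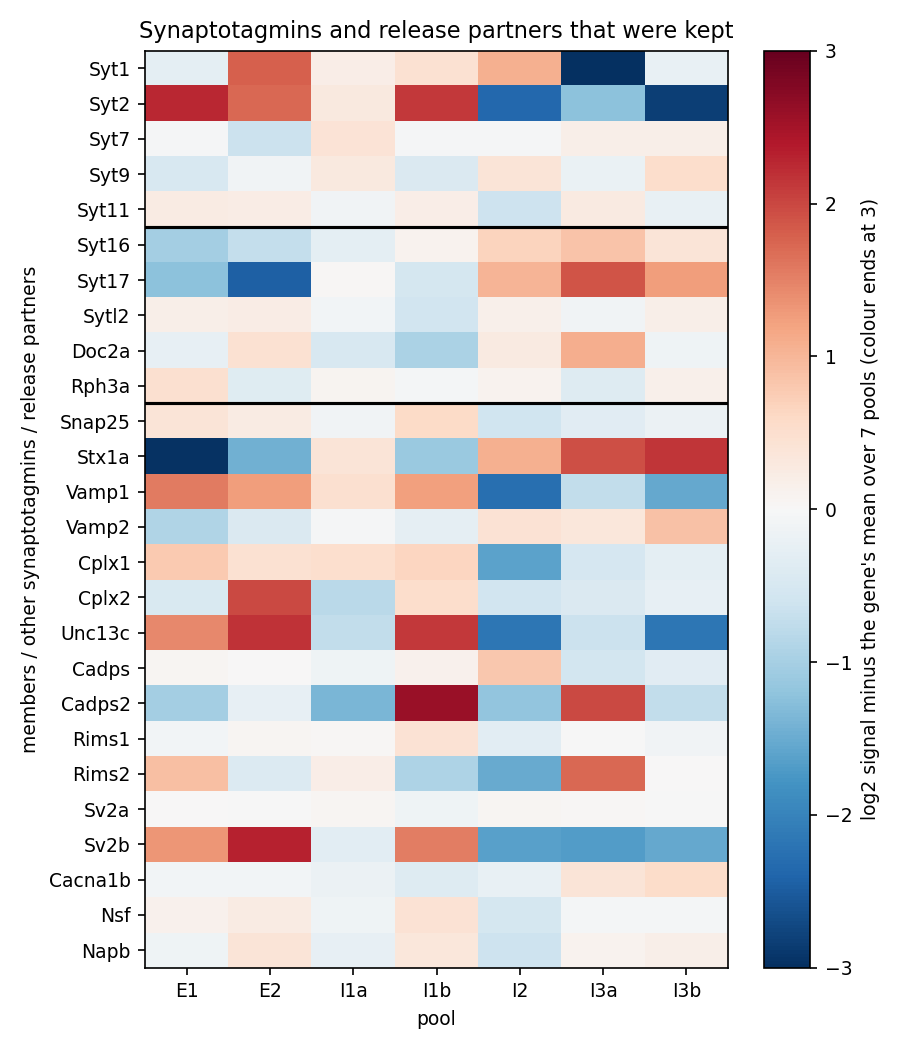
Pool means of the kept members (top block), other synaptotagmins and related C2-domain genes (middle) and release partners (bottom), each gene as its log2 deviation from its own mean over the 7 pools (colour, ending at 3 units on either side). Syt2, Vamp1 and Unc13c are above their means in E1, E2 and I1b and below them in I2, I3a and I3b, while Syt17 and Stx1a are above theirs in I2, I3a and I3b.

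Genes of fast-spiking neurons were a list of 11, with 10 on the array and kept. The list was chosen with earlier results of these data known, so it is no independent test of a likeness to Syt2. Its median difference was 1.57 log2 units for E against I and 1.59 for I1 against I3, with 0 called in each. In each, 10 of 10 were positive, as were 2174 and 2036 of all 4409 genes. In the same comparisons the median over all genes was -0.01 and -0.04. Scn4b, the sodium channel subunit linked to resurgent current, averaged 9.89 in the E pools and 5.42 in the I pools (adjusted p = 0.753), and 8.60 in the I1 pools and 3.52 in the I3 pools (adjusted p = 0.162). In I1a against I1b, 9 of the 10 had a lower value in I1a, as had 2965 of all 4409 genes. The median difference was -0.96 for the 10 and -0.22 over all genes. Of the 10, 6 were called, against 13.1% of all genes: 5 lower, as Syt2 was, and 1, Pvalb, higher by 1.06 (SE 0.11, adjusted p = 2.53e-05). Over all genes 431 of the 579 calls were lower in I1a. Kcna2 (-0.81) and Nefm (-0.73) were not called with quantile normalization. Nor was Kcna2 without the second I1a array (-0.98), or Nefm without the first I1a (-0.98) or the first I1b array (-0.93). Transmitter genes and ion channels were among those used to sort the cells into types, and the labels do not list them.

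Of the tested members, Syt1 and Syt2 had pool means that span at least 2 log2 units, and for each the most similar genes were sought among 857 kept genes with a span as wide, by the Pearson correlation of the 7 pool means. The genes most like Syt2 were Scn4b (r = 0.99), Slc17a6 (0.98) and Epb41l3 (0.98), a membrane skeleton protein of axons. Scn4b was at 10.15 in E1, 9.62 in E2, 7.45 in I1a, 9.75 in I1b, 2.84 in I2, 4.22 in I3a and 2.82 in I3b. This is the same split of pools as Syt2, as the choice by likeness favours. Among the list genes Vamp1 ranked number 4 (0.97), Unc13c number 15 (0.95) and Stx1a number 845 (-0.91).

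The genes most like Syt1 were Ntng1 (r = 0.97), which encodes an axonal adhesion molecule, Elmo1 (0.97), which acts in cell migration through Rac, and the kinase gene Tlk1 (0.94). All 3 were lowest in I3a, where Ntng1 was at 3.12, Elmo1 at 4.19 and Tlk1 at 5.99. They were picked for their likeness to Syt1, so a low I3a value follows largely from the choice. Syt2 ranked number 307 for Syt1, and Syt1 number 278 for Syt2. Among the members, Syt9 ran against Syt2 (-0.81) and Syt11 with it (0.71) within their narrow ranges, the last for a Syt11 probe set whose order of pools the other did not repeat. These correlations are over 7 pools that share the method of amplification and the array normalization, and they describe these pools without a test.

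**Figure D5:**
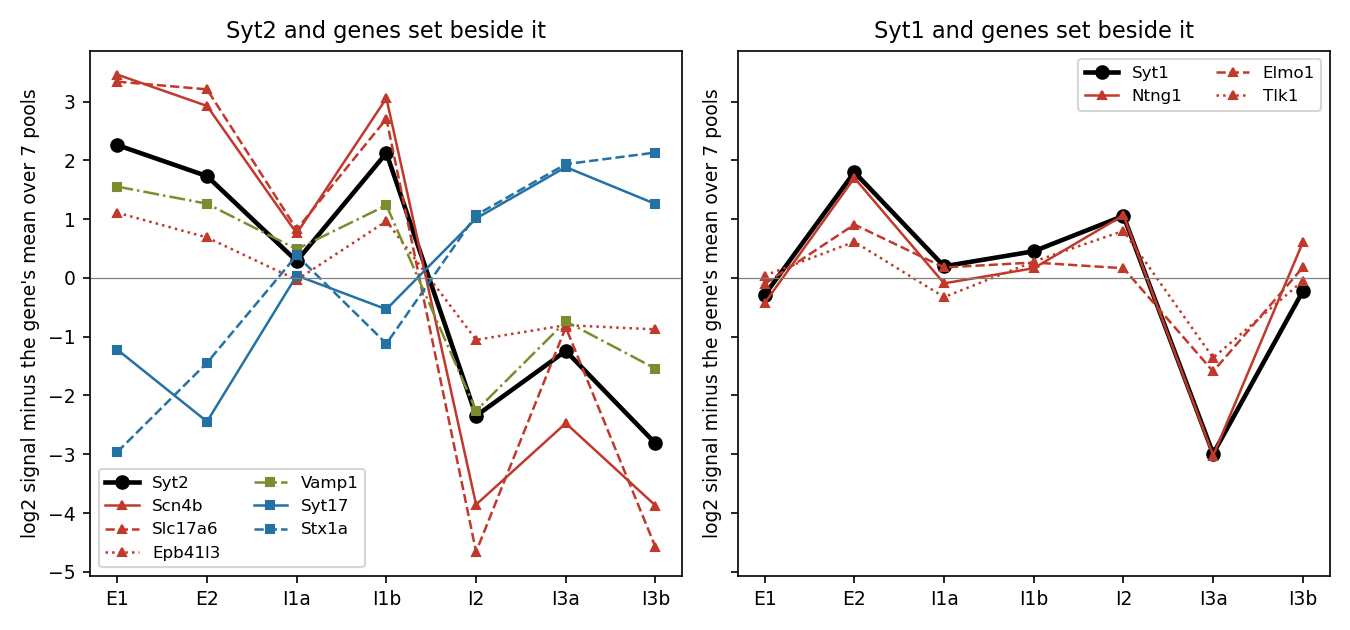
Pool means over the 7 pools (horizontal axis) as log2 signal minus each gene's own mean (vertical axis), for Syt2 with its 3 most similar genes and with Vamp1, Syt17 and Stx1a (left), and for Syt1 with its 3 most similar genes (right). Syt17 and Stx1a run against Syt2, and all genes of the Syt1 panel, picked for their likeness to Syt1, are lowest in I3a.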

How the data were processed

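Pooled single-cell cDNA of 7 neuron types was measured on 14 arrays, 2 technical replicates per pool. The authors deposited log2 signals made with affy and GCRMA, per the submitters' processing notes, which give no versions; GCRMA subtracts background, puts the arrays on 1 scale and combines the probes of a set, so low values pile up at a shared floor. The log base was read from the values. No counts exist, so depth is unknown here beyond signal over background, and the number of arrays limits precision.

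Each gene was represented by 1 probe set, of those with a single symbol the one of highest mean signal, and was kept when at least 1 type averaged 5 or more. The 77 symbols of members and lists that had a probe set all matched RefSeq (GRCm38.p6) through Entrez identifiers. Fits used limma 3.58.1 (R 4.3.3, statmod 1.5.0; lmFit, eBayes with intensity trend): E against I on 7 pool means (5 residual degrees of freedom), I1 against I3 on the same means in 4 families (3 degrees of freedom), and the 3 pair comparisons (E1 minus E2, I1a minus I1b, I3a minus I3b) on all 14 arrays with 1 mean per type (7 degrees of freedom). Adjusted p-values are Benjamini-Hochberg over all 4409 genes kept, and called means adjusted p under 0.05 and at least 1 log2 unit. The fits were tested on simulated data. Figures used matplotlib 3.10.9 and pandas 2.3.3 under Python 3.11.15.

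Named were all members, up to 6 kept genes per list and comparison (called ones by size, or where none was called those differing by at least 1), the 3 genes most like each member whose means span at least 2, and the markers. Members and lists were chosen with earlier results of these data known. Alternatives were other filters, values under 5 set to 5, quantile normalization, median centring, the mean of a gene's probe sets, no trend, pool and replicate blocks, only the arrays of a pair, and leaving out arrays or pools. Syt4 and Syt13 were not analysed here.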

Additional observations from a re-analysis of the deposited data

Results flagged for a closer look

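Among the 5 inhibitory pools, some probe sets had 1 pool far from the other 4, by a criterion that chance meets in about 5% of groups. Syt7 probe set 1439633_at was highest in I1a, at 7.274. Its gap to the nearest other I pool was only 0.30 log2 units, with a technical SD of 0.16. The Syt7 probe sets 1441927_at and 1460081_at did not meet the criterion. Syt10 (2.426), Syt6 probe set 1449766_at (2.388) and Syt7 probe set 1423012_at (2.387) also stood apart in I1a, but at or within 0.05 log2 units of the floor, where such gaps carry no measurable signal. Pvalb, a calcium buffer of fast-spiking neurons, was low in I2 at 3.653. Ntng1 and Elmo1, examined because they were the genes most like Syt1, were low in I3a at 3.116 and 4.19, which follows largely from that choice. Syt1 itself, at 6.68 in I3a, did not meet the criterion because its other 4 inhibitory pools were spread more widely.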

How the results depend on the processing

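Members called numbered 0 for E against I under every alternative run. For I1 against I3 the count was 0, except 1 (Syt2) with the pool as a random block on 14 arrays and 1 (Syt2, adjusted p = 0.00779) with the replicate block and the pool as a random block. For I1a against I1b it was 2 with quantile normalization (Syt2 and Syt9), and for I3a against I3b 1 with values under 5 set to 5 (Syt1). Over all genes E against I had 0 to 6 calls against 1, and I1 against I3 had 114 with the pool block and 104 with the replicate block added against 0. Both block fits counted the technical arrays of a pool towards the error, under 1 within-pool correlation for all genes. The pair comparisons had 326, 579 and 437 calls, against 217, 358 and 256 with values under 5 set to 5, 196, 329 and 260 with the mean of all probe sets, and 193, 304 and 218 with the filter at 7, which tests fewer genes. Other scaling moved the split of I1a against I1b from 148 higher and 431 lower to 220 and 279 (quantile) and 227 and 256 (centred); that of E1 against E2 was 185 and 141, against 163 and 162 (quantile) and 161 and 164 (centred). Small differences changed sign: Syt11 in E1 against E2 was -0.055 with quantile normalization and -0.0351 centred, Syt1 in I1a against I1b 0.0132 with quantile normalization, and Syt7 in I3a against I3b 0.0736 with quantile normalization and 0.0816 centred. When arrays or pools were left out, I1 minus I3 ran from -0.20 to 0.22 for Syt7, -0.59 to 0.14 for Syt9 and -0.22 to 0.26 for Syt11, E1 minus E2 from -0.15 to 0.18 for Syt11, I3a minus I3b from -0.14 to 0.11 for Syt7, and E minus I from -0.14 to 2.28 for Cplx2; Rims2 in I1 against I3 was 0.19 without I1b and I3a. The causes were not tested. Deviations of arrays with the same replicate number correlated at -0.12 to 0.21 over 21 pairs of pools, 4 of them over 0.1. Whether arrays of the same number share a weak effect was not tested further. The replicate block left the members called in the pair comparisons at 1, 1 and 2. Values near the floor limit what can be said of Syt2 in I2, I3a and I3b.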
